A study of Mus musculus with 6 samples.

Results

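The myosin heavy chains of skeletal muscle were described across 6 genes: Myh3 and Myh8, the embryonic and perinatal isoforms, Myh1, Myh2 and Myh4, the adult fast isoforms of type 2X, 2A and 2B fibres, and Myh7, the isoform of slow type 1 fibres and of the heart. Every probe set (a group of short oligonucleotides that reads a transcript) to which the platform annotation gives one of these symbols and no other was taken, which gave 8 of the 22626 probe sets tested and 6 of the 12393 genes with such a probe set. Myh1 had 3 probe sets and each of the other genes had 1.

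Total RNA of whole muscle from 6 wild type C57BL/6 mice was hybridised, 1 array for each mouse. In 3 mice (arrays labelled TFEB-injected, here TFEB arrays) the muscle was injected with adeno-associated virus (AAV) for the mouse Tfeb (Tcfeb) cDNA, and in the other 3 (control, here GFP arrays) with AAV for green fluorescent protein. By the labels the mice were 1 month old, although adult muscle is named in the study's text, and no source used here says which muscle was taken. The vector of the study carries a CMV promoter, which is not restricted to muscle fibres, and the controls received a vector too. The labels call the 3 arrays of each group biological replicates.

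Each myosin heavy chain forms the motor and rod of the thick filament, and the isoform sets how fast a fibre shortens and how much ATP it uses. Muscle fibres pass from embryonic and perinatal to adult isoforms during development, and regenerating fibres of adult muscle express the developmental isoforms again for a time. In rodents the skeletal fast and developmental genes lie side by side in a cluster, apart from the slow gene.

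The developmental isoforms were higher on the arrays labelled TFEB by far more than the spread between arrays. The probe sets of the adult fast isoforms differed by at most 0.45 on the log2 scale, most of them near the top of the scale, and slow Myh7 by 0.71 with a wide interval. Of the 8 probe sets, 2 passed the threshold (limma, Benjamini-Hochberg adjusted p under 0.05 over 22626 probe sets and at least 1.5-fold), those of Myh3 and Myh8, both higher, and 0 passed as lower, nor was any lower at an unadjusted p under 0.05. Among all probe sets 13.6% passed, 7.51% as higher and 6.11% as lower. With no limit on the fold, 5 of the 8 had an adjusted p under 0.05, all higher, against 32.6% of all probe sets (14.5% higher and 18.1% lower). The TFEB and GFP values did not overlap in 6 of the 8, with TFEB above in 5 and below in 1, whereas this held for 49.9% of all probe sets (20.1% above and 29.7% below). The median difference of the 8 was 0.41 on the log2 scale, beside -0.06 over all probe sets.

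**Figure D1:**
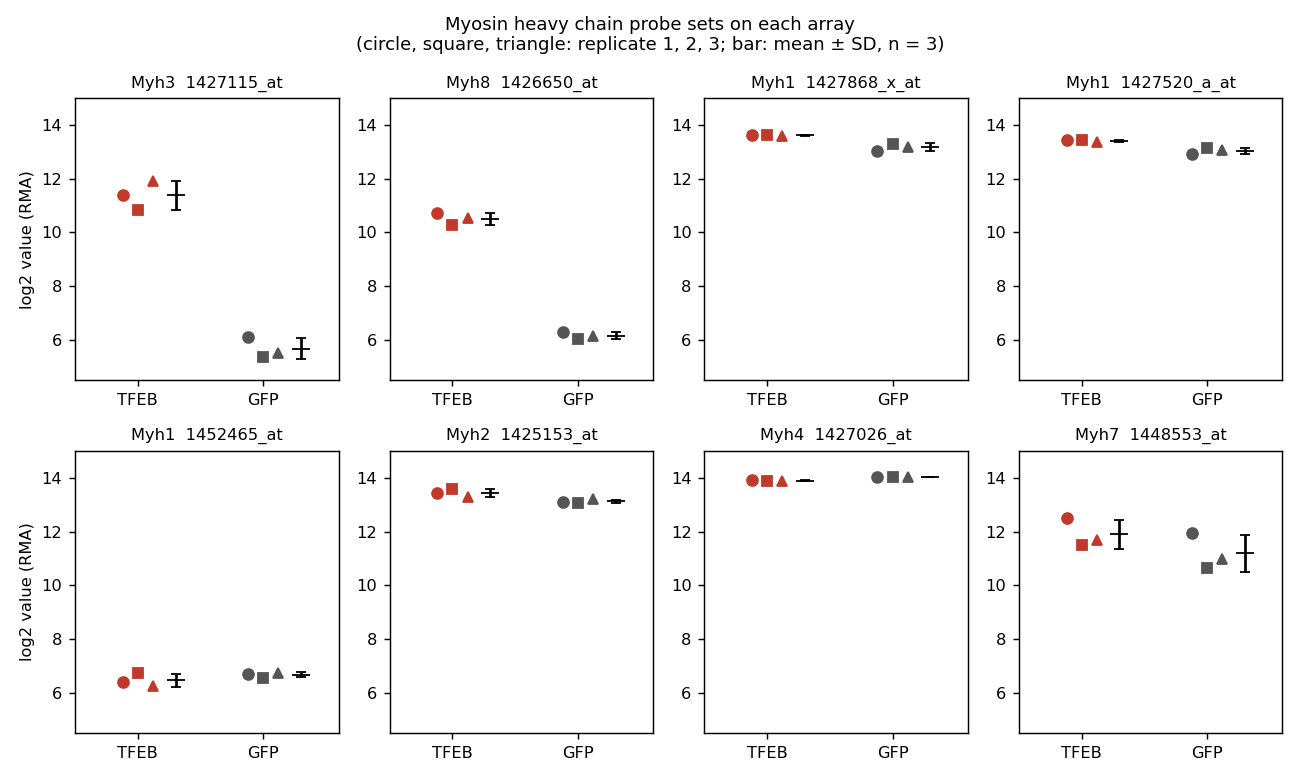
Deposited log2 values (vertical axis) of the 8 myosin heavy chain probe sets on the 3 TFEB arrays (red, left) and the 3 GFP arrays (grey, right), with the mean ± SD of each group and a symbol for each replicate number. The Myh3 and Myh8 values of the TFEB arrays, from 10.26 to 11.91, all lay above those of the GFP arrays, from 5.36 to 6.29, whereas both groups of Myh1 (1427868_x_at and 1427520_a_at), Myh2 and Myh4 sat near the upper end of the scale.

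A few values of the whole series bear on these results. The Tfeb probe set was lower on the TFEB arrays (7.92, 7.68 and 7.61) than on the GFP arrays (8.49, 8.47 and 8.58), with a log2 difference of -0.77 ± 0.097 (SE, limma adjusted p = 0.00244). No source used here says where its probes lie relative to the injected cDNA, so this probe set does not check the labels in either direction. The TFEB arrays differed from each other by over 2-fold at 45 to 101 probe sets, and GFP arrays 1 and 3 at 87. GFP array 2 stood apart from these at 844 and 725. The defining muscle transcripts Ckm and Acta1 were near the array maximum in both groups, and Myh6, the alpha isoform of the heart, was at 3.89 in TFEB and 3.82 in GFP on average. In bulk muscle, fewer cells of a type and less RNA per cell cannot be told apart.

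The 5 skeletal genes Myh3, Myh2, Myh1, Myh4 and Myh8 were consecutive protein-coding genes on chromosome 11 in the RefSeq annotation of GRCm38.p6, and Myh7 lay beside Myh6 on chromosome 14. The promoter windows of 4 members are shown because they belong to neighbouring genes with unlike differences: Myh3 and Myh8, which rose, and Myh1 and Myh4, which did not pass the threshold. Each window runs from 250 bases before to 50 bases after the start site (RefSeq, GRCm38.p6, 5′ to 3′ on the gene's strand). Capitals mark stretches of 14 or more bases that a pair of member windows share, and the motif TATAAA as it reads on the printed strand.
Myh3, chr11:67078050-67078349, + strand: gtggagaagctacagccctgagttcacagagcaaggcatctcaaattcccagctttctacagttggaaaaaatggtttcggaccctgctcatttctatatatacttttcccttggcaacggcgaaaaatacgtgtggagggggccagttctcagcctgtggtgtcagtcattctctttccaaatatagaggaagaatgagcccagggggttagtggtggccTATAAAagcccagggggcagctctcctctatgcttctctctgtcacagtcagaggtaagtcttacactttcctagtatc
Myh8, chr11:67276874-67277173, + strand: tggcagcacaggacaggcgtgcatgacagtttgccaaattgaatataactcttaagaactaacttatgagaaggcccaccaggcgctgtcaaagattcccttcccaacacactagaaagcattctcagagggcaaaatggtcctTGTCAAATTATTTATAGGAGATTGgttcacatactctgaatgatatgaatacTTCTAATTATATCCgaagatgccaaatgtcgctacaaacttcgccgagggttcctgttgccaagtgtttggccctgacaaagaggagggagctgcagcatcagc
Myh1, chr11:67199852-67200151, + strand: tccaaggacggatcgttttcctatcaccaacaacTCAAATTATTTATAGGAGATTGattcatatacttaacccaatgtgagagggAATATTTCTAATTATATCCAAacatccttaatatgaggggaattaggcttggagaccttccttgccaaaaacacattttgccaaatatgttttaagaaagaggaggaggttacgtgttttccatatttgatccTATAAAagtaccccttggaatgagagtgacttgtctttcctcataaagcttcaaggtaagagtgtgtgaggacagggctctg
Myh4, chr11:67237562-67237861, + strand: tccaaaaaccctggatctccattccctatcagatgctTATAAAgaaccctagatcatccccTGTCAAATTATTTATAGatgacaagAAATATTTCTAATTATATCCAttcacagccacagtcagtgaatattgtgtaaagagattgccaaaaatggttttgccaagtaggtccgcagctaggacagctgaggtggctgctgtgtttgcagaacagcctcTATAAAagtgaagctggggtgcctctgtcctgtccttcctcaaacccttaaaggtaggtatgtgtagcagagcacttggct

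The stretch ttctaattatatcc, 14 bases long, stood in 4 of 32851 promoter windows (0.0122%), those of Myh1, Myh2, Myh4 and Myh8, and not in that of Myh3. It began at position -54 from the start site in Myh8, against -160 in Myh1, -125 in Myh2 and -158 in Myh4. These positions depend on the annotated start sites. The TATAAA nearest the start on the gene's strand was at -32 in Myh1 and -31 in Myh4, but at position 11, after the start, in Myh2. Myh1 and Myh8 also shared tcaaattatttataggagattg, 22 bases that no other window held. The longest stretch that Myh3 shared with any member was 11 bases (with Myh4), and 19 windows held it. In these windows Myh3 and Myh8 shared 8 bases at most, less than Myh8 shared with the adult fast genes. The windows follow the annotated start sites and need not cover matching parts of the promoters. How much Myh3 and Myh8 share outside them was not examined.

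Motifs were searched on both strands in 7 member windows, 2 of them of Myh7. TATAAA was found in the windows of Myh1, Myh2, Myh3, Myh4 and Myh8, against 13.6% of all windows. In Myh8 it read on the opposite strand only, inside a match to the MEF2 site. The MEF2 site, named for the factors that bind it in muscle genes, matched in Myh1, Myh4 and Myh8 (3.19% of all windows), where it overlaps a TATAAA of the opposite strand. The E-box CANNTG, the sequence bound by basic helix-loop-helix factors such as MyoD, was in 5 of the 7 windows and in 72.3% of all. CACGTG was in 0 of the 7 (7.15% of all), and the CLEAR element, the longer consensus around it known from TFEB target genes, in 0 as well (0.326% of all). These are matches of letters in a window and say nothing of binding.

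Myh3, the embryonic heavy chain, was the largest rise of all 22626 probe sets. Its log2 values were 11.41, 10.84 and 11.91 on the TFEB arrays, against 6.11, 5.36 and 5.52 on the GFP arrays. The lowest TFEB value lay 4.73 above the highest GFP value. The means were 11.39 ± 0.54 in TFEB and 5.67 ± 0.39 in GFP (SD, n = 3 each), a difference of 5.72 ± 0.30 (SE, 95% interval 5.00 to 6.44) or 52.7-fold (limma adjusted p = 0.000289). Within their arrays the probe set ranked 439 to 1007 from the top on the TFEB arrays and 12347 to 14939 on the GFP arrays, so that it was among the brighter transcripts on the TFEB arrays and below the middle of the table on the GFP arrays.

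Myh8, the perinatal heavy chain, was the 6th largest rise. It read 10.71, 10.26 and 10.55 on the TFEB arrays, against 6.29, 6.04 and 6.14 on the GFP arrays, with 3.97 between the groups. The difference of 4.35 ± 0.13 (SE, 95% interval 4.04 to 4.67), or 20.4-fold, had a limma adjusted p of 0.000129. The 3 TFEB arrays were closer together for Myh8 (SD 0.23) than for Myh3 (SD 0.54). TFEB array 2 was the lowest TFEB array and GFP array 1 the highest GFP array for both genes. Set against each other within each array, Myh3 had the larger difference, by 1.37 on the log2 scale. This contrast did not overlap between the groups, and its exact two-sided permutation p of 0.10, 0.14 after adjustment over the 15 pairs of members, is the smallest that 3 arrays against 3 allow.

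**Figure D2:**
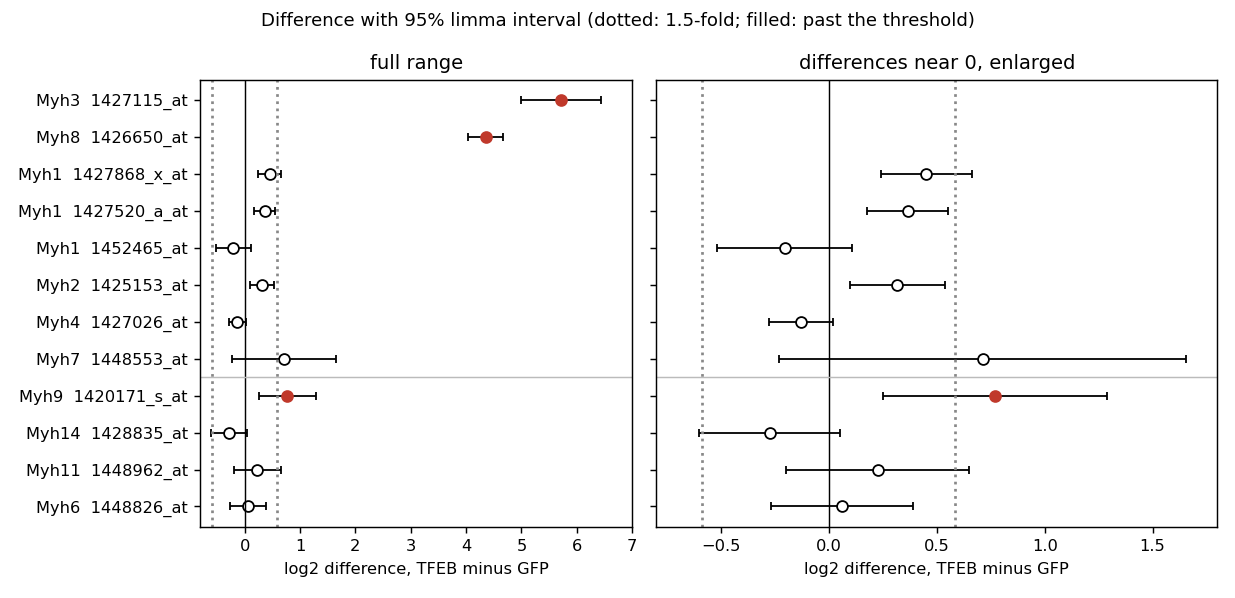
Difference of TFEB minus GFP on the log2 scale (horizontal axis) with its 95% interval from limma for the 8 probe sets and, below the line, for 4 other myosin heavy chains, over the full range (left) and enlarged near 0 (right). Filled points passed the threshold, as Myh3 at 5.72, Myh8 at 4.35 and Myh9 at 0.77 did, and the dotted lines mark 1.5-fold.

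The genes whose values ran most like those of Myh8, each relative to its own GFP mean, were Gpnmb, Eno2, Postn, Prl7a2 and C1qtnf3, with root mean square distances of 0.196 to 0.316 (log2) over the 6 arrays. Gpnmb encodes a transmembrane glycoprotein known from macrophages, Eno2 the enolase of neurons and Postn periostin, a matrix protein of fibroblasts. For Myh3 the nearest were Hamp (hepcidin, the iron hormone), Prl7a2, Gpnmb, Eno2 and Myh8, at 0.796 to 1.01. The distances are larger for Myh3, since no other probe set rose as much. Likeness over 6 arrays in 2 groups is mostly the size of the group difference.

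Myh1, the heavy chain of 2X fibres, was read by 3 probe sets that disagreed. The brightest, 1427868_x_at, read 13.63, 13.62 and 13.61 on the TFEB arrays, against 13.02, 13.31 and 13.19 on the GFP arrays. The groups did not overlap, and the difference of 0.45 ± 0.089 (SE, 95% interval 0.24 to 0.66) had a limma adjusted p of 0.0107 but was under 1.5-fold. The suffix _x_at marks probe sets in which some probes also match other transcripts. Probe sequences were not among the sources used here, so cross-reaction between the myosin heavy chains was not checked for any member probe set. Its part in the differences of Myh1 and Myh2, and in their contrasts with other members, was not tested.

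The second Myh1 probe set, 1427520_a_at, read 13.43, 13.43 and 13.38 on the TFEB arrays, against 12.92, 13.13 and 13.09 on the GFP arrays. TFEB was again above in every array, by 0.37 ± 0.079 (SE, limma adjusted p = 0.0144). The dimmer 1452465_at read 6.38, 6.73 and 6.26 on the TFEB arrays and 6.68, 6.56 and 6.75 on the GFP arrays. Its groups overlapped, with a difference of -0.20 ± 0.13 (SE, 95% interval -0.52 to 0.11, limma adjusted p = 0.269). With the 3 probe sets averaged on each array the difference was 0.20 (limma adjusted p = 0.0803), so whether the adjusted p was under 0.05 depended on the probe set, and none of these passed the fold limit.

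Myh2, the heavy chain of oxidative fast 2A fibres, read 13.43, 13.58 and 13.30 on the TFEB arrays, against 13.09, 13.07 and 13.20 on the GFP arrays. The groups did not overlap but were separated by only 0.10. The difference was 0.32 ± 0.092 (SE, 95% interval 0.10 to 0.54, limma adjusted p = 0.0384), under 1.5-fold. Leaving out any array except TFEB array 3 moved the adjusted p to between 0.0638 and 0.107.

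Myh4, the heavy chain of glycolytic 2B fibres, was the only member with every TFEB value below every GFP value. It read 13.93, 13.89 and 13.88 on the TFEB arrays, against 14.05, 14.02 and 14.02 on the GFP arrays, with 0.093 between the groups. The difference of -0.13 ± 0.062 (SE, 95% interval -0.28 to 0.02) did not pass (limma adjusted p = 0.152). The 3 arrays of each group differed by less than the groups did, but the difference was far under the fold limit.

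Those 4 fast probe sets (1427868_x_at and 1427520_a_at of Myh1, Myh2 and Myh4) were near the top of the scale, that is, among the highest 1% of values (at least 12.45 to 12.49) on all 6 arrays. Myh4 ranked 11 to 15 from the top of its array and lay 0.29 to 0.49 below the array maximum, and the other 3 ranked 26 to 99. Of the 227 probe sets in the highest 1% of GFP means, 3.52% passed the threshold, against 13.6% of all, and 27.8% had an adjusted p under 0.05. Their differences had a median of -0.05 and an interquartile range of -0.21 to 0.09, and the largest rise among them was 0.67. Myh1 (1427868_x_at) was the 3rd largest rise of these 227, and Myh4 the 81st lowest. The choice by GFP mean leaves out probe sets that reached this brightness only on the TFEB arrays. Actc1, for example, was at 11.73 in GFP and 13.52 in TFEB on average. The largest rise, the share that passed and the place of Myh1 among the 227 thus depend partly on that choice. At this brightness a probe set can be close to saturation, which compresses differences, and saturation was not measured here.

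**Figure D3:**
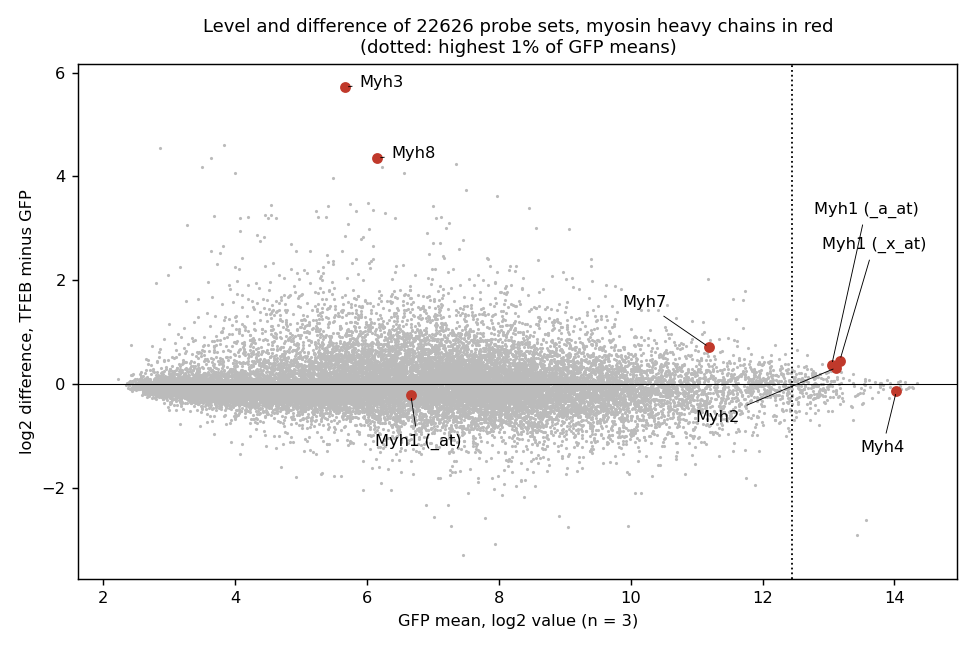
Difference of TFEB minus GFP (vertical axis, log2) against the mean log2 value of the 3 GFP arrays (horizontal axis) for 22626 probe sets (grey), with the 8 myosin heavy chain probe sets in red. Right of the dotted line, where the highest 1% of GFP means lie, differences ran from -2.91 to 0.67, and Myh3 at 5.72 was the highest point of the plot.

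Within each array the differences of the fast isoforms could be set against each other, since a shift of a whole array cancels. Relative to Myh4, itself within 0.49 of the array maximum, Myh1 (1427868_x_at) differed between the groups by 0.58, with -0.29, -0.27 and -0.27 on the TFEB arrays, against -1.03, -0.72 and -0.83 on the GFP arrays. Myh2 relative to Myh4 differed by 0.45, with -0.49, -0.31 and -0.58 on the TFEB arrays, against -0.96, -0.95 and -0.82 on the GFP arrays. Both contrasts were higher on every TFEB array than on any GFP array, at the smallest exact permutation p possible (0.10, adjusted 0.14). The contrast of Myh1 with Myh2 overlapped (0.13, exact permutation p = 0.30, adjusted 0.35). With the 3 Myh1 probe sets averaged, the contrast of Myh1 with Myh4 was 0.33 and that with Myh2 was -0.11, the opposite sign. Of the 15 pairs, 11 did not overlap between the groups, and the 4 that did were those of Myh1 with Myh2 and of Myh7 with each fast isoform. Most of the 11 include Myh3 or Myh8, whose large rises alone separate them from the adult isoforms. The only others were Myh1 with Myh4 and Myh2 with Myh4. No share over pairs of other probe sets was computed, and single probe sets had no overlap in 49.9% of cases.

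Myh7, the slow heavy chain, ranged over more within each group than the means of the groups differed. It read 12.52, 11.49 and 11.69 on the TFEB arrays, against 11.96, 10.65 and 10.96 on the GFP arrays. The groups overlapped, since GFP array 1 was above TFEB arrays 2 and 3. The difference of 0.71 ± 0.39 (SE, 95% interval -0.23 to 1.65) did not pass (limma adjusted p = 0.207), and the interval leaves room for a rise of over 2-fold as well as for a small fall. Leaving out 1 array moved the difference to as low as 0.40 (without TFEB array 1) or 0.44 (without GFP array 2) and as high as 1.10 (without GFP array 1), with adjusted p from 0.057 to 0.473 over the 6 such fits. Among the probe sets the annotation assigns to more than 1 gene, 2 include this symbol, at differences of 0.61 ± 0.41 (SE, limma adjusted p = 0.283) and 0.22 ± 0.39 (SE, limma adjusted p = 0.695).

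Array 1 was the highest for Myh7 in both groups, by 0.62 above the TFEB mean and 0.77 above the GFP mean. The other slow fibre genes measured (16 genes of a list of slow fibre genes, most of them contractile or calcium-handling, with the metabolic genes Mb, Fabp3 and Ldhb) were mostly above their group mean on the same arrays, with medians of 0.20 on TFEB array 1 and 0.36 on GFP array 1. Their medians were -0.14 and -0.10 on TFEB arrays 2 and 3 and -0.31 and -0.03 on GFP arrays 2 and 3. For 7 of the 16 array 1 was the highest in both groups, whereas 15.9% of all genes showed this. The same count was 8 of 18 for the fast fibre genes, whose medians moved by at most 0.02. The numbers 1 to 3 do not tie a TFEB mouse to a GFP mouse in the labels.

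**Figure D4:**
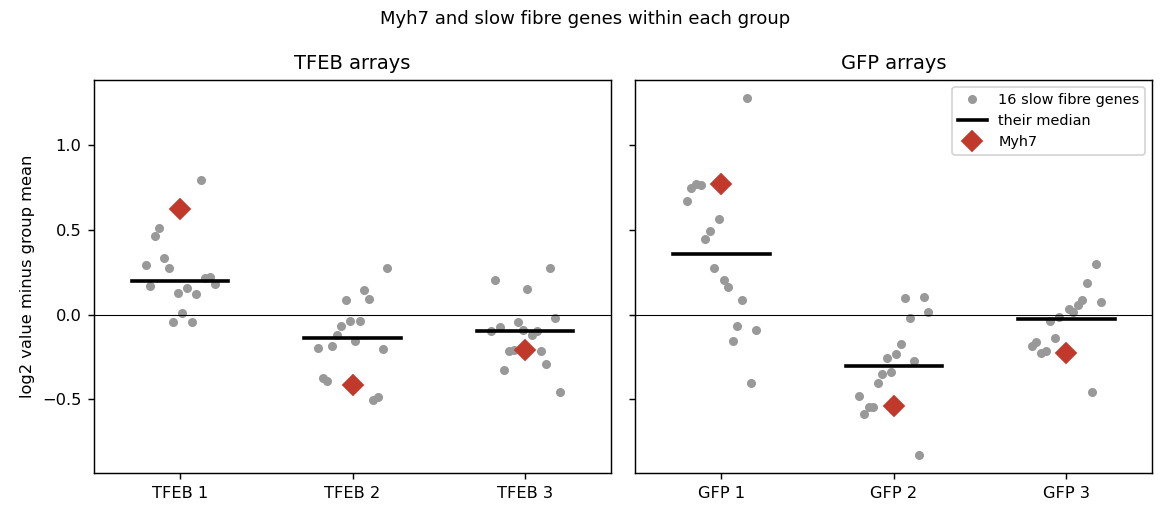
Log2 value minus the group mean (vertical axis) of Myh7 (red diamonds) and of 16 other slow fibre genes (grey points, black bars their median) on the 3 TFEB arrays (left) and the 3 GFP arrays (right). Myh7 stood 0.62 above its mean on TFEB array 1 and 0.77 above on GFP array 1, on the same side of 0 as the median of the slow genes on all 6 arrays.

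Of the slow fibre genes, 5 of 16 rose and 0 fell in the limma fit (median 0.55; 9 higher and 0 lower at an unadjusted p under 0.05), beside 8.62% and 4.9% of all genes (median -0.05). Sln, which encodes sarcolipin, an inhibitor of the calcium pump, read 10.63, 9.93 and 10.69 on the TFEB arrays, against 7.51, 5.40 and 5.77 on the GFP arrays. The groups were well apart, with a difference of 4.19 ± 0.54 (SE, limma adjusted p = 0.00265). Casq2, the calsequestrin of slow fibres and heart, rose by 2.41 ± 0.13, Tnni1, slow troponin I, by 1.51 ± 0.34, and Csrp3, muscle LIM protein, by 0.90 ± 0.20 (log2 differences ± SE, limma adjusted p = 0.000331, 0.0172 and 0.0155). Tnni1 and Sln are also known in embryonic muscle, and Csrp3 in stretched or regenerating muscle. Of the 11 slow fibre genes that did not pass, Myl3 (-0.27), Tpm3 (-0.26), Ldhb (-0.16) and Myl6b (-0.03) had log2 differences below 0. The rest, Tnnt1, Tnnc1 and Myl2 among them, had differences above 0.

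Of the fast fibre genes, 0 of 18 rose and 1 fell in the limma fit (median -0.05; 1 higher and 4 lower at an unadjusted p under 0.05). That one was Mylk2, the kinase of the regulatory light chain of skeletal myosin, with 9.77, 9.82 and 9.36 on the TFEB arrays, against 10.69, 10.37 and 10.73 on the GFP arrays. Its difference was -0.94 ± 0.16 (SE, limma adjusted p = 0.00574), with no overlap. TFEB values lay below all GFP values in 11 of the 18 and above them in 4, whereas among all genes 51.1% had no overlap, 28.2% with TFEB below and 22.9% above. Many of the 18 were as near the top of the scale as Myh4, where arrays of a group differed little. Lack of overlap there can rest on small differences, of the order of their limma SE. Such were Tnnc2 (-0.06 ± 0.06) and Myl1 (-0.05 ± 0.06) below, and Mylpf (0.06 ± 0.06) above (log2 differences ± limma SE). The limma SE draws on the variance of all probe sets and does not measure the spread between these arrays. That spread was smaller, as for Tnnc2 (SD 0.0132 in TFEB and 0.0079 in GFP).

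Of a list of genes known from developing or regenerating fibres, 7 of 11 rose and 0 fell in the limma fit, with a median difference of 0.96, beside 8.62% higher and 4.9% lower among all genes (10 of the list higher and 0 lower at an unadjusted p under 0.05). The list holds sarcomere genes, the intermediate filament genes Nes, Vim and Des and the stress-induced Ankrd1, and Nes and Ankrd1 are among the 7. Tnni1 and Tnnc1 are in both this list and the slow list. Myl4, the embryonic essential light chain, read 10.95, 11.23 and 11.56 on the TFEB arrays, against 7.94, 6.91 and 7.66 on the GFP arrays, a difference of 3.74 ± 0.28 (SE, limma adjusted p = 0.000631). Tnnt2, cardiac and embryonic troponin T, read 9.19, 9.40 and 9.95 on the TFEB arrays, against 6.35, 5.95 and 5.75 on the GFP arrays, a difference of 3.50 ± 0.23 (SE, limma adjusted p = 0.000479). Neither gene overlapped between the groups. Ankrd1, a stress-induced ankyrin protein of the sarcomere, rose by 3.43 ± 0.46 and Actc1, cardiac alpha-actin, by 1.79 ± 0.09 (log2 differences ± SE, limma adjusted p = 0.00307 and 0.000289). In 10 of the 11 every TFEB value lay above every GFP value, against 22.9% of all genes.

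Of 23 genes that regulate fibre type or myogenesis, 3 rose and 2 fell (median -0.06), beside 8.62% higher and 4.9% lower among all genes. Myog, the factor of myoblast differentiation that also rises in denervated muscle, read 8.87, 9.17 and 9.59 on the TFEB arrays, against 5.65, 5.69 and 5.88 on the GFP arrays. The difference of 3.47 ± 0.18 (SE, limma adjusted p = 0.000289) was of the order seen for Myl4 and Tnnt2, with no overlap. Nfatc1, a calcineurin-dependent factor of slow fibre genes, rose by 0.90 ± 0.10 and Myf5, the myogenic factor of satellite cells, by 0.94 ± 0.14 (log2 differences ± SE, limma adjusted p = 0.00153 and 0.00386). Nfatc3 fell, at a log2 difference of -0.63 ± 0.08, as did Eya1, a transcriptional cofactor of fast fibres, at -0.92 ± 0.14 (SE, limma adjusted p = 0.00275 and 0.00442).

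Of 17 genes listed for myosin folding and thick filament assembly, 8 were measured, and Unc45b and Trim63 were among those not measured. Of the 8, 1 rose and 1 fell, beside 8.62% higher and 4.9% lower among all genes. Hsp90aa1, the HSP90 chaperone that with UNC45 folds the myosin head, differed by 0.65 ± 0.14 and Trim54 (MuRF3), a ubiquitin ligase of the sarcomere, by -0.97 ± 0.10 (log2, SE, limma adjusted p = 0.0161 and 0.00124). The median was -0.01.

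Of the 8 other myosin heavy chains listed, 4 were measured and 1 passed. Myh9, the non-muscle chain IIA of most cell types, read 9.87, 10.35 and 10.29 on the TFEB arrays, against 9.15, 9.85 and 9.21 on the GFP arrays, with GFP array 2 close to the TFEB values. Its difference was 0.77 ± 0.22 (SE, limma adjusted p = 0.0357), and all 4 of its probe sets rose, by 1.56- to 1.77-fold. Myh11 of smooth muscle (0.23 ± 0.18), Myh6 (0.06 ± 0.14) and Myh14, another non-muscle chain (-0.27 ± 0.14), did not pass (log2 differences ± SE, limma adjusted p = 0.357, 0.753 and 0.166). The groups of these probe sets overlapped. A second, dimmer Myh11 probe set went the other way, with 5.03, 5.07 and 4.84 on the TFEB arrays, against 5.17, 5.36 and 5.21 on the GFP arrays. Its groups did not overlap, and its difference of -0.27 ± 0.094 (SE, limma adjusted p = 0.0704) did not pass.

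Some markers of other cell types moved with the groups. Of 11 satellite cell and myoblast markers 5 rose and 0 fell (Myf5, Cd34 and Msc of smallest p). Of the 6 that did not pass, Pax7, Cdh15, Calcr and Des had differences above 0, and Pax3 (-0.19) and Chrdl2 (-0.23) below. The log2 of the summed linear level of the markers was 13.22 to 13.29 on the TFEB arrays, against 12.92 to 13.10 on the GFP arrays. Most of that sum was Des, at 12.93 to 13.07 in TFEB and 12.72 to 12.92 in GFP. Des is also in the smooth muscle list, where it was again a large part of the sum, and among the defining skeletal muscle genes. For endothelial cells 5 of 10 rose (Esam, Tie1 and Cdh5 of smallest p; summed 11.48 to 11.69 in TFEB, 10.75 to 10.94 in GFP), for fibroblasts 5 of 11 (Col3a1, Col1a1 and Col1a2; 14.71 to 15.05 in TFEB, 13.88 to 14.04 in GFP) and for smooth muscle and pericytes 2 of 9 (Pdgfrb and Acta2; 14.09 to 14.13 in TFEB, 13.58 to 13.63 in GFP), with 0 lower in each at the threshold or at an unadjusted p under 0.05. Of the 9 smooth muscle and pericyte markers, 6 had every TFEB value above every GFP value, against 22.9% of all genes. The groups of Myh11 (0.23), Tagln (0.04) and Cnn1 (-0.26) overlapped (log2 differences). Of 14 macrophage markers 1 passed, Cd68, at a median difference of 1.33. The macrophage sum was 12.66 to 13.54 on the TFEB arrays, against 11.19, 13.44 and 11.34 on the GFP arrays, so GFP array 2 was within the TFEB range. Without that array, a comparison added after seeing the data, 13 of the 14 rose. That array had the highest macrophage sum of the GFP arrays, so leaving it out largely fixed this count in advance. In that fit 12.3% of all genes were higher, against 8.62% with all arrays. The counts of the embryonic (7), slow (5) and fast (0 rose, 1 fell) genes were the same numbers, and Myh3 and Myh8 still rose.

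Myh3 and Myh8 on GFP array 2, at 5.36 and 6.04, were the lowest of the GFP values, just below GFP array 3 at 5.52 and 6.14. Of the cardiac markers 1 of 8 rose and 0 fell, beside 8.62% and 4.9% of all genes, and the median difference was 0.006. The 1 was Nppa, dim at 4.57 in GFP and 5.38 in TFEB on average (0.81 ± 0.18, SE, limma adjusted p = 0.0173). TFEB values lay above all GFP values in 3 of the 8 and below them in 2, against 22.9% and 28.2% of all genes. Myh6 was near the low end of the scale in both groups. Of the markers of Schwann cells (5), adipocytes (4) and red blood cells (2) 0 passed in either direction in the limma fit (2 higher and 5 lower at an unadjusted p under 0.05). Without GFP array 2, in the comparison added after seeing the data, a Schwann cell marker and a pair of adipocyte markers fell. Of 10 defining skeletal muscle genes 1 rose (Actn2) and 1 fell (Tcap). The beta-actin 3′ minus 5′ control, a measure of RNA integrity, was 0.218 to 0.341 on the TFEB arrays, against 0.0373 to 0.0774 on the GFP arrays. The same control for Gapdh lay closer together, at -0.0384 to 0.0534 on the TFEB arrays and -0.0707 to -0.0611 on the GFP arrays. The part of cell mixture and of RNA integrity in the myosin differences was not tested.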

How the data were processed

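Values were analysed as the authors deposited them, 1 log2 value per probe set and array. The submitters' processing notes name affy and RMA (which corrects background, quantile-normalizes arrays and summarises probes), with versions not given in the sources used here. That the scale is log2 follows from the range of values, 2.20 to 14.37, with array medians of 6.44 to 6.55. Quantile normalization can remove part of a change common to most transcripts. Arrays have no read depth, and their number limits the precision. Of 22690 probe sets, 64 controls were left out. GEO's platform annotation gave 1 symbol to 20380 of the rest, several to 691 and none to 1555. No filter on dim values was applied, so all 8 member probe sets were tested.

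Groups were compared with limma 3.58.1 in R 4.3.3 (lmFit, eBayes, 2-group model, two-sided, Benjamini-Hochberg over 22626 probe sets), each difference being TFEB minus GFP. The study's methods for the arrays were not among the sources, and the threshold follows the legend of its gene list. The fit was tested on simulated data. Pairs of members were compared within arrays by an exact permutation test. For each gene the probe set with the highest mean stood for it. The genes named are all members and other myosin heavy chains, up to 4 genes of smallest p in each direction from each pathway list, up to 3 from each cell type list, and the 5 nearest in pattern to each member past the threshold. The members and lists were chosen with earlier results of these data known. Promoter windows came from RefSeq (GRCm38.p6) and Python 3.11.15 was used. Alternatives left out each array and changed the block, weights, scaling, normalization, filter, variance prior, test, fold limit and probe set per gene.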

Additional observations from a re-analysis of the deposited data

How the results depend on the processing

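All 8 probe sets kept the direction of their difference under each of 14 alternative settings of the fit, 1 of them (scaling to the fast fibre genes) chosen after seeing the data. Myh3 stayed between 5.46 and 5.99 and Myh8 between 4.25 and 4.48, both past the threshold under every one. Without each array in turn the other ranges were 0.37 to 0.52 (Myh1 1427868_x_at), 0.30 to 0.41 (Myh1 1427520_a_at), -0.34 to -0.11 (Myh1 1452465_at), 0.25 to 0.39 (Myh2), -0.14 to -0.12 (Myh4) and 0.40 to 1.10 (Myh7, with 0.40 without TFEB replicate 1, 0.44 without GFP replicate 2 and 1.10 without GFP replicate 1). With the replicate number as a block, Myh7 kept its difference of 0.71 and passed the threshold (limma adjusted p = 0.0109), and Myh2 had an adjusted p of 0.0837. Same-numbered arrays deviated together in 2 of 3 pairs only (correlations 0.42, 0.17 and -0.23), so the numbers are not taken to pair mice. Over the alternatives the limma adjusted p of Myh7 ran from 0.0109 to 0.473 and that of Myh2 from 0.0135 to 0.107. That of Myh4 ran from 0.0246 to 0.304, and the two-group test of the study's general statistics gave 0.0218 for it, with its difference under the fold limit in each. With no fold limit, 5 member probe sets were higher, and of all probe sets 3273 were higher and 4095 lower, against 1700 and 1382 at the threshold (1309 to 2428 and 1120 to 1794 without each array in turn). With arrays set to equal medians, 1475 were higher and 1789 lower, and the median of all differences was -0.13 in place of -0.06. With the probe sets of Myh1 averaged, its contrast with Myh2 was -0.11 in place of 0.13 and that with Myh4 0.33 in place of 0.58, because 1452465_at then enters. The contrast of Myh1 with Myh7 ran from -0.72 to 0.077 without each array in turn, and was 0.046 without TFEB replicate 1 and 0.077 without GFP replicate 2, in place of -0.26. The cause was not tested. Most of the fast probe sets were near the top of the scale, where saturation can limit what differences show, and saturation was not measured.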
